A study of Homo sapiens with 48 samples.

Results

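The effect of lowering TNFR1 by siRNA was examined in untreated MDA-MB-231 cells, an established mesenchymal, basal-like human breast cancer line. It was measured as 3 arrays of cells given siRNA against TNFR1 (siTNFR1) against 3 arrays of cells given a control siRNA (siCtrl), which are 6 of the 48 arrays of the series. Probes that map to 1 gene symbol and were detected at p under 0.01 on 3 or more of these 6 arrays were taken, with the brightest probe standing for its gene, which gave 7608 genes of the 20045 that have such a probe.

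The series asks which genes the compound BV6, an antagonist of inhibitor of apoptosis proteins, induces through TNFR1 and other routes. Both groups used here carried siRNA at 5 nM for 36 h with a lipid reagent and no BV6, and both are labelled 9 h. Arrays of siRELA and siIRF1 cells (3 each, untreated) came from the same experiment and served to set apart genes that moved with every siRNA. The siTNFR1 and siCtrl pair was also measured with 50 nM BV6 for 9 h (3 arrays each) and, without BV6, in EVSA-T, a second established breast cancer line (2 arrays each). The sources used here do not give an siRNA's bases, or whether it was 1 sequence or a pool. Nothing in the labels says that replicates were separate cultures, so the p-values measure only the spread between these samples, which may be technical.

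TNFR1 is the receptor, present on most cells, through which the cytokine TNF signals. On binding TNF it gathers the adaptors TRADD and RIPK1, ubiquitin ligases such as cIAP1 and LUBAC, and the kinases TAK1 and IKK, which release NF-kB from its IkB inhibitors. NF-kB then turns on chemokine, cytokine and feedback genes, and a second, cytoplasmic complex with FADD can lead to cell death.

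Probes detected per array ran from 10989 to 11834 with siTNFR1 and from 10621 to 13072 with siCtrl. Across genes, arrays of a group correlated at 0.986 to 0.989 with siTNFR1 and at 0.979 to 0.986 with siCtrl, and no 2 arrays were identical. The median deposited log2 signal was 6.58 to 6.65 with siTNFR1 and 6.69 to 6.80 with siCtrl, so it moved with the group, and its part in the calls was not tested beyond the median scaling given with the counts. Of 9 mesenchymal markers with a probe 7 were detected, with SPARC and FN1 at 0 arrays, and of 10 luminal markers only EPCAM and SPDEF were. Among markers of other cells, CD14 was detected out of 6 leukocyte markers, with PTPRC, CD3D, CD3E and MS4A1 at 0 arrays, and 0 of 9 fibroblast and endothelial markers were. Summed signals of the mesenchymal markers ran from 55590 to 57160 with siTNFR1 and from 48440 to 58990 with siCtrl, and those of the leukocyte markers from 323.1 to 371.8 with siTNFR1 and from 320.3 to 345 with siCtrl. In such bulk RNA, fewer cells of a kind and less RNA per cell cannot be told apart.

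TNFRSF1A, the gene of TNFR1, was the gene with the largest change among those tested. Its log2 signal was 5.72, 5.94 and 5.53 on the siTNFR1 arrays, none of which detected it, against 9.98, 10.13 and 9.69 on the siCtrl arrays. The groups lay far apart, and cells with siRELA (10.55, 10.19 and 10.01) or siIRF1 (9.99, 9.43 and 9.52) sat beside siCtrl. The transcript was at least 18.5-fold lower with siTNFR1 (limma, adjusted p = 3.43e-14, n = 3 each). Such a bound sets the mean of the brighter group against, on each array of the dim group, the higher of the probe's own signal and the lowest detected signal, since an undetected probe has no measured level. Within slide 1 the fitted difference was -4.34 log2 and within slide 2 it was -3.96. The slide numbers used here follow the order of the samples in the series, and the sample titles and column headers name no slide.

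Around the receptor, no other transcript of its signalling complex was called, which says little in a list this short. Of 18 measured genes of the TNFR1 signalling complex, TNFRSF1A alone was called, against 1.31% of all genes called lower and 3.06% called higher. The median difference of the 18 was -0.03 log2, beside -0.01 over all genes. The E3 ligase gene BIRC2 (cIAP1) differed by -0.13 ± 0.16 log2, the adaptor gene FADD by 0.07 ± 0.14, the kinase gene IKBKB by -0.03 ± 0.16 and IKBKG (NEMO) by 0.08 ± 0.14 (limma, SE). The largest values among uncalled members were those of MAP4K4, a kinase (0.48 ± 0.17, adjusted p = 0.119), and MAP3K7, the TAK1 gene (0.42 ± 0.15). MLKL, the executor of necroptosis, differed by -0.31 ± 0.13.

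Of 13 other TNF receptors, ligands and shedding enzymes, 1 was called, beside 4.38% of all genes. It was TNFRSF21, the gene of death receptor 6. Its signal was 12.63, 12.37 and 12.21 with siTNFR1, against 11.97, 11.96 and 11.66 with siCtrl, and the groups did not overlap. It rose by 0.54 ± 0.15 log2 (limma, adjusted p = 0.0338), moved the same way with siRELA and siIRF1, and lost its call in 9 of 18 alternative settings. TNFSF10, which encodes the death ligand TRAIL, had 9.76, 8.81 and 8.50 with siTNFR1, against 8.18, 8.0 and 7.14 with siCtrl. All siTNFR1 arrays lay above all siCtrl arrays, but the spread was wide and the difference of 1.25 ± 0.44 log2 did not pass (adjusted p = 0.11). ADAM17, the sheddase of TNF and its receptors, differed by -0.02 ± 0.15, and LTBR, the lymphotoxin receptor gene, by 0.17 ± 0.13.

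NF-kB subunit and inhibitor genes had 2 of 12 measured members called, both higher, beside 3.06% of all genes. NKIRAS1, whose product holds back degradation of IkB proteins, rose by 0.75 ± 0.15 log2 (limma, adjusted p = 0.00212), with 9.34, 9.58 and 9.77 on the siTNFR1 arrays and 8.83, 8.85 and 8.75 on the siCtrl arrays. It too was higher with siRELA and siIRF1. NFKBIB, the IkB-beta gene, was called at 0.66 ± 0.19 (adjusted p = 0.0427) from a probe detected on 2 siTNFR1 arrays and 1 siCtrl array, its other probe differed by -0.05, and the call was lost in 12 of 17 settings. NFKB2 (0.51 ± 0.18), NFKB1 (0.27 ± 0.13) and RELA (0.15 ± 0.17) were not called.

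Among the NF-kB targets, 3 of 24 measured genes were called, CXCL1 and SOD2 lower and SAA1 higher, beside 4.38% of all genes, and the median was 0.05 log2. SOD2, the mitochondrial superoxide dismutase, had 8.92, 9.10 and 9.15 with siTNFR1, against 9.43, 9.82 and 9.72 with siCtrl. The 2 groups were separate, and SOD2 fell by 0.60 on the log2 scale (SE 0.13; limma, adjusted p = 0.00683). A dimmer probe of SOD2, detected on 3 of the 6 arrays, differed by -0.16 ± 0.27. SOD2 was called lower still with siRELA (-0.99) but not with siIRF1 (-0.01), and lost its siTNFR1 call in 4 of 18 settings. CXCL1, a neutrophil chemokine, gave 6.02, 6.18 and 6.14 with siTNFR1, against 6.96, 6.79 and 6.58 with siCtrl, and was detected on 2 siTNFR1 arrays and 1 siCtrl array. It was called lower at -0.66 ± 0.19 (adjusted p = 0.0411), and also with siRELA (-1.11) and siIRF1 (-0.66), which puts it among the genes set apart. Without BV6 its signal was so close to background that the size was not measured, and 11 of 17 settings lost the call. It was the 1 call among 9 measured chemokines and cytokines.

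IL6 and NFKBIA show how the uncalled targets lay. IL6, the interleukin 6 gene, had 7.95, 7.90 and 6.97 with siTNFR1, against 8.83, 8.42 and 8.12 with siCtrl. Every siTNFR1 array was below every siCtrl array, and the difference of -0.85 ± 0.31 log2 did not pass (limma, adjusted p = 0.125). NFKBIA, the IkB-alpha gene and a direct feedback target, had 10.09, 9.58 and 9.69 with siTNFR1, against 10.44, 9.76 and 10.18 with siCtrl, and the groups overlapped (-0.33 ± 0.19, adjusted p = 0.395). CXCL8, the interleukin 8 gene, differed by -0.39 ± 0.26, IL32 by 0.14 ± 0.22 and TNIP1, an inhibitor of the pathway, by -0.08 ± 0.18.

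The promoters of these targets were read to show the sequence NF-kB is known to bind. The kB motif searched was GGG, any 2 bases, then TTTCC. It was sought on both strands from 250 bases before to 50 after each start site in RefSeq promoters of GRCh38.p14. It stood in 7 of the 19 NF-kB targets with a promoter in that table (36.8%). It stood in 2.86% of the promoters of all tested genes, in 2.74% of those called lower and in 4.17% of those called higher. The targets were listed for being known NF-kB genes, so their share describes the list. The stretches below are shown because they belong to 1 called and 3 uncalled targets, with the motif in capitals and read along the strand of the gene. For NFKBIA the motif lies on the opposite strand, so its reverse complement is in capitals.
CXCL1, chr4:73869294-73869343, plus strand: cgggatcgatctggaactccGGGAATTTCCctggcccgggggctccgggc
IL6, chr7:22727107-22727156, plus strand: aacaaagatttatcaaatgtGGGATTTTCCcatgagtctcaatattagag
NFKBIA, chr14:35404801-35404850, minus strand: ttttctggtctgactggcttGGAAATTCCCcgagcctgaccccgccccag
TNIP1, chr5:151081047-151081096, minus strand: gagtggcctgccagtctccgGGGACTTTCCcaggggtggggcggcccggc
No match was found before the start sites of SOD2 or CXCL8, which says only that these letters are not in that window.

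**Figure D1:**
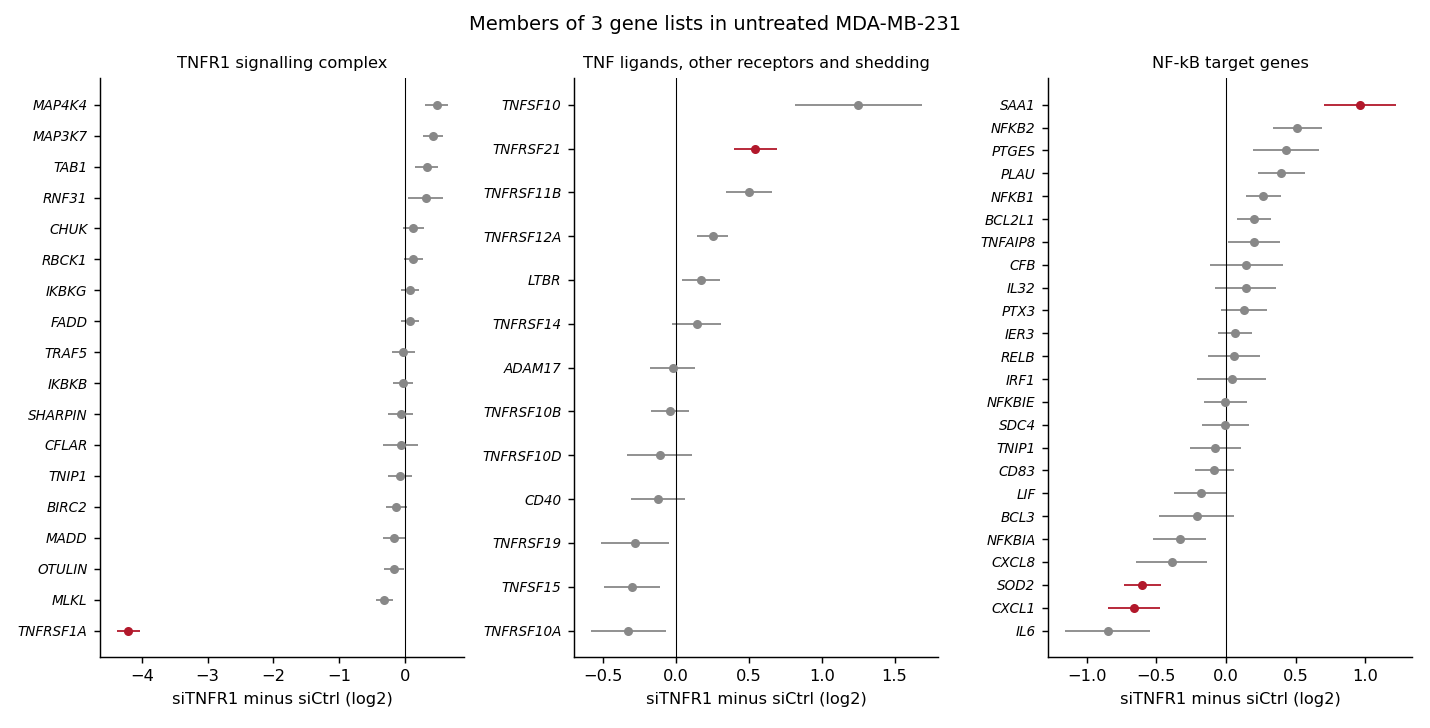
Difference between siTNFR1 and siCtrl (log2, horizontal axis) for the measured members of 3 gene lists in untreated MDA-MB-231. Points are limma estimates from 3 arrays against 3, lines are standard errors, and red marks an adjusted p under 0.05. TNFRSF1A lies at -4.21 and the other 17 genes of its signalling complex between -0.31 and 0.48.

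Over all 7608 genes, 333 were called with siTNFR1 (4.38%), of which 233 were higher and 100 lower (limma, Benjamini-Hochberg, adjusted p under 0.05). This fit paired no arrays, and with the replicate numbers as a block 510 genes were called. With the slide as a block there were also 510, and within slide 1 and slide 2 there were 58 and 109. By these slide numbers, slide 1 holds 1 siTNFR1 array against 2 siCtrl arrays and slide 2 holds 2 against 1. Each within-slide fit therefore assumes that the lone array varies like the other siRNA groups on its slide. Without siTNFR1 replicate 1 the count was 202, and without siCtrl replicate 3 it was 203. The split depends on scaling. When arrays were set to a common median in place of quantiles, the median over all genes moved to -0.15 log2, and 93 genes were higher and 157 lower, which is 37.2% higher against 70% before. No named gene changed direction under it. At the threshold, KLF13 and EXOC2 lay just inside (adjusted p = 0.0490 for both), and MRM2 (0.05003) and BLCAP (0.0512) just outside.

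**Figure D2:**
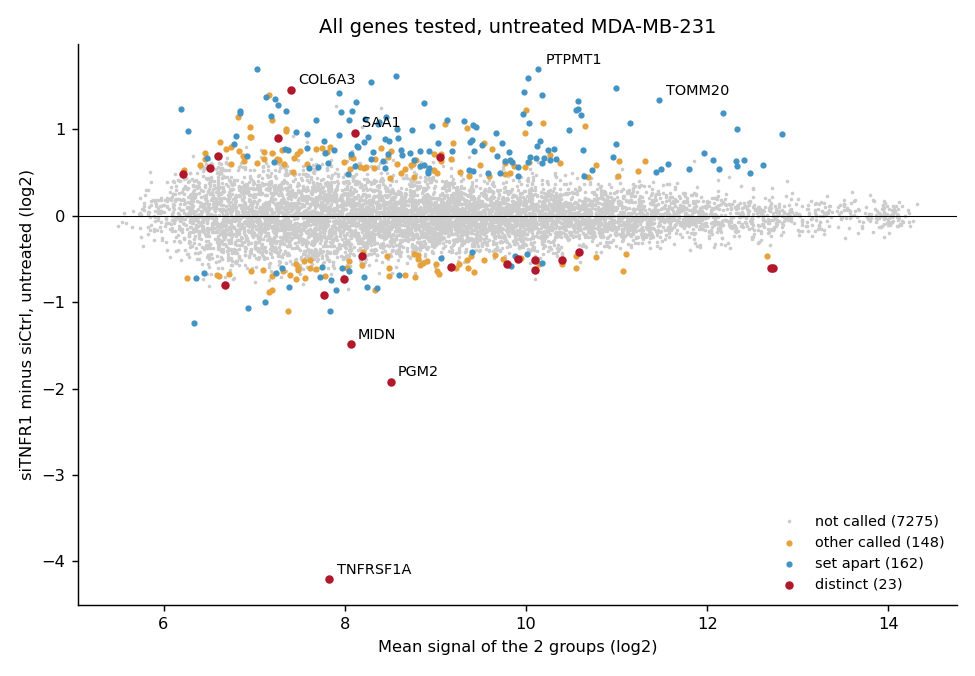
Difference between siTNFR1 and siCtrl (log2, vertical axis) against the mean log2 signal of both groups for the 7608 genes tested, with 3 arrays per group. Blue marks 162 called genes that also moved with both other siRNAs, red marks 23 that also differed from both other siRNAs, orange the other 148 called genes, and grey the genes not called. TNFRSF1A, PGM2 and MIDN stand below the rest.

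Called genes were sorted by the other 2 siRNAs. Of the 333, 162 were called in the same direction with both siRELA and siIRF1 against siCtrl (137 higher and 25 lower, 2.13% of genes tested), and these were set apart. The 3 comparisons share their siCtrl arrays, and siRELA and siIRF1 called 24.8% and 25.1% of genes by themselves. A further 23 genes, 16 lower and 7 higher (0.302%), were not set apart and also differed in the same direction from siRELA and from siIRF1 cells, in comparisons without siCtrl arrays that called 17.7% and 21.8% of genes. The siTNFR1 arrays are the same throughout. With median scaling the genes set apart were 63 higher and 29 lower, and those that differed from all 3 siRNA groups were 1 higher and 19 lower. The other 148 met neither condition.

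PGM2 had the largest fall of the 23 after TNFRSF1A. It encodes a phosphoglucomutase that converts pentose and hexose phosphates. Its signal was 7.78, 7.27 and 7.57 with siTNFR1, against 9.50, 9.70 and 9.20 with siCtrl, and no siTNFR1 array came near a siCtrl array. It fell by 1.92 on the log2 scale (SE 0.15; limma, adjusted p = 8.47e-09), and the difference was -1.82 within slide 1 and -1.78 within slide 2. PGM2 was also called lower with siRELA (-0.97) but not with siIRF1 (-0.05), and with siTNFR1 it stood 0.95 ± 0.15 log2 units under siRELA (adjusted p = 9.85e-05). Its relative PGM1, the main phosphoglucomutase of glycogen metabolism, went the other way, at 0.60 ± 0.12 (adjusted p = 0.00212), and belonged to the genes set apart. The other 14 of 16 measured sugar phosphate enzymes were not called, where 4.38% of all genes were called.

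MIDN encodes midnolin, a nuclear protein that carries short-lived transcription factors to the proteasome. Its signal was 7.10, 7.29 and 7.57 with siTNFR1, against 8.75, 8.59 and 9.10 with siCtrl. All siTNFR1 arrays were more than 1 log2 unit below the lowest siCtrl array, and MIDN fell by 1.49 (SE 0.20; limma, adjusted p = 2.57e-05). It also lay below siRELA (-1.35 ± 0.20) and siIRF1 (-0.91 ± 0.20), and siIRF1 was itself called lower than siCtrl (-0.58, adjusted p = 0.0349). MIDN kept its call in all 18 alternative settings. PGM2 and TNFRSF1A kept theirs in every setting that tested them, which leaves out the requirement of detection on all 6 arrays, since neither was detected on all of them.

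GPX4, the peroxidase that clears lipid peroxides from membranes, was among the brightest of the 23. It had 12.43, 12.48 and 12.31 with siTNFR1, against 13.08, 13.00 and 12.95 with siCtrl. The spread within each group was small beside the gap, and GPX4 fell by 0.60 on the log2 scale (SE 0.12; limma, adjusted p = 0.00341), with -0.42 ± 0.13 at its other probe. Against siIRF1 the difference was smaller (-0.35 ± 0.12, adjusted p = 0.0447). With SOD2 it made 2 of 20 measured NRF2 and oxidative stress genes called lower, beside 1.31% of all genes. GCLC, of glutathione synthesis (-0.43 ± 0.14, adjusted p = 0.0940), and HMOX1, heme oxygenase 1 (-0.39 ± 0.16), were not called, and NQO1 and PRDX1 both differed by 0.00.

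ARF4, a small GTPase of Golgi traffic, had 12.27, 12.46 and 12.53 with siTNFR1, against 12.99, 13.07 and 13.03 with siCtrl. It fell by 0.61 (SE 0.14; limma, adjusted p = 0.00913), and its other probe gave -0.71 ± 0.19. Of 26 measured genes listed for membrane traffic and receptor turnover, RAB7A, a GTPase of late endosomes, was called higher (0.82 ± 0.11, set apart). MIDN, called lower, was also on that list, although its product is nuclear and serves the proteasome. Over all genes 3.06% were called higher and 1.31% lower. ARF4 was not on that list.

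The remaining falls of the 23 were smaller. C11orf54 fell by 0.92, TMEM64 by 0.74, RND3 by 0.63, YOD1, a deubiquitinase, by 0.59 and DLD, a subunit of pyruvate dehydrogenase, by 0.56. Another probe of TMEM64, detected on 5 of the 6 arrays, gave -0.30 ± 0.16. DPAGT1, which starts N-glycan synthesis, fell by 0.51, and its other probe gave -1.25. MYLIP, a ligase that degrades the LDL receptor, and TPRG1L each fell by 0.51, GPRC5A by 0.47 and SAT1, the polyamine acetyltransferase, by 0.42. OXSM, of mitochondrial fatty acid synthesis, was undetected with siTNFR1 and lower by at least 1.74-fold (limma, adjusted p = 0.00168). YOD1, GPRC5A and SAT1 lost their calls in 10, 11 and 8 settings, DPAGT1 in 7, and RND3, DLD and TPRG1L in 6 each. MYLIP lost it in 3, TMEM64 in 2 and C11orf54 in 1.

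Of the 7 rises in this class, a number that was 1 with median scaling, COL6A3, a chain of collagen VI, was the largest. It had 8.20, 8.36 and 7.84 with siTNFR1, against 7.20, 6.56 and 6.27 with siCtrl, where only 1 array detected it. The groups did not overlap, and COL6A3 rose by 1.46 ± 0.30 log2 (limma, adjusted p = 0.00341), with 0.78 ± 0.22 at its other probe. COL6A1, another chain (0.76 ± 0.22, adjusted p = 0.0462), and THBS1, thrombospondin 1 (0.64 ± 0.16), were also called, making 3 of 21 measured mesenchymal and invasion genes higher, beside 3.06% of all genes, with a median of 0.17. THBS1 was also called higher with siRELA (0.54) and siIRF1 (0.47), so it belongs to the genes set apart, and it lost its call in 6 of 18 settings. COL6A1 lost its call in 10 of 17 settings. VIM (0.01 ± 0.13), CD44 (-0.06 ± 0.17) and MMP1 (-0.04 ± 0.26) were not called.

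SAA1, an acute phase protein gene that NF-kB drives, was the only NF-kB target called higher. It had 8.54, 8.98 and 8.26 with siTNFR1, against 7.65, 7.62 and 7.62 with siCtrl. The same gene was lower with siRELA (5.82, 6.09 and 5.64) and siIRF1 (7.42, 6.84 and 6.34), so the 3 siRNAs did not move it alike. SAA1 rose by 0.96 ± 0.26 with siTNFR1 (limma, adjusted p = 0.0292), its other probes gave 0.48 and -0.11, and 9 of 18 settings lost the call. SAA2 is nearly identical to it, so which gene the probe reads is uncertain. TINAGL1, a secreted matrix protein gene, had 7.80, 7.59 and 7.75 with siTNFR1, against 6.74, 6.79 and 6.92 with siCtrl, and rose by 0.90 ± 0.16 (adjusted p = 0.00112), with 1 siCtrl array detecting it. SAMD15 (0.69), AFAP1 (0.68) and SEPTIN6 (0.56) rose less, and lost their calls in 9, 6 and 12 settings. ZNF84, undetected with siCtrl, was at least 1.40-fold higher (limma, adjusted p = 0.0450).

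**Figure D3:**
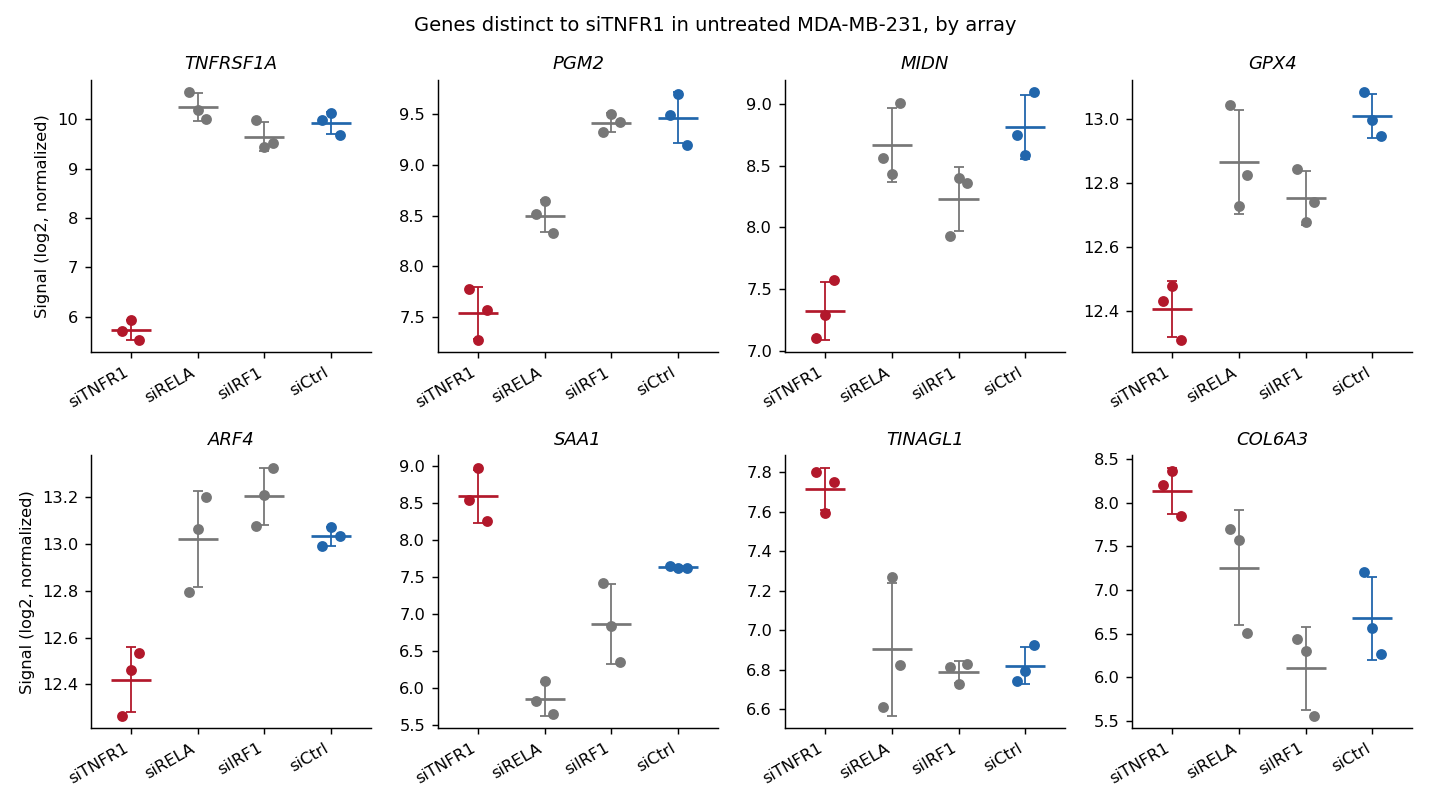
Normalized log2 signal of 8 genes that differed between siTNFR1 and each of siRELA, siIRF1 and siCtrl in untreated MDA-MB-231. Points are single arrays (3 per group), and bars show the mean and SD. In TNFRSF1A, PGM2, MIDN, GPX4 and ARF4 all siTNFR1 arrays lie below the other 9, and in SAA1, TINAGL1 and COL6A3 above them.

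The genes set apart were mostly higher. PTPMT1, a mitochondrial phosphatase of cardiolipin synthesis, had 11.03, 10.94 and 10.97 with siTNFR1, against 9.38, 9.15 and 9.33 with siCtrl. It was also at 10.91, 10.69 and 10.34 with siRELA and at 11.29, 11.22 and 11.40 with siIRF1, so the siCtrl arrays alone were low. It rose by 1.69 ± 0.13 log2 (limma, adjusted p = 4.17e-09). TOMM20, of the outer mitochondrial import pore, had 12.25, 12.04 and 12.12 with siTNFR1, against 10.67, 10.94 and 10.79 with siCtrl, and rose by 1.34 ± 0.12, and its other probe gave 1.40. Both were on a list for the mitochondrial inner membrane and oxidative phosphorylation. The other 21 of its 23 measured genes were not called, where 4.38% of all genes were called. ATP5F1A, COX4I1 and UQCRC1 differed by 0.03, 0.07 and 0.06.

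CIRBP, the cold-inducible RNA-binding protein, had 11.65, 11.73 and 11.81 with siTNFR1, against 10.32, 10.24 and 10.19 with siCtrl, and rose by 1.48 ± 0.11 (limma, adjusted p = 4.17e-09). WSB1, a ubiquitin ligase adaptor, rose by 1.61 ± 0.22, CALU, a calcium-binding protein of the endoplasmic reticulum, by 1.60 ± 0.13, H1-10, a linker histone, by 1.54 ± 0.19 and BOD1, a kinetochore protein, by 1.43 ± 0.14. RBM3, the other well known cold-inducible RNA-binding protein, differed by 0.13 ± 0.15. Of the 27 measured genes of that list 25 were not called, where 4.38% of all genes were called. These 7 genes kept their calls in every setting, as did SLC2A3.

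SLC2A3, the glucose transporter GLUT3, rose by 1.40 ± 0.16 (limma, adjusted p = 4.50e-06), from a list of 31 hypoxia and glycolysis genes in which it alone was called (median 0.16). MCL1, a survival protein of the BCL2 family, had 9.85, 10.23 and 10.37 with siTNFR1, against 9.37, 9.48 and 8.73 with siCtrl, and rose by 0.96 ± 0.17. The difference was 0.42 within slide 1 and 1.57 within slide 2. MCL1 alone was called among 17 cell death genes. CCND3, cyclin D3, rose by 0.72 ± 0.12, 1 of 38 cell cycle genes, and KLF2 by 0.62 ± 0.12, 1 of 21 AP-1 and immediate early genes. These single calls stand beside 3.06% of all genes called higher. TADA2B, detected on no siCtrl array, was at least 3.23-fold higher.

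Among the 25 set apart and lower, ZCCHC24 fell by 1.11, SNORD16, a small nucleolar RNA, by 1.07, TENT5B, a poly(A) polymerase, by 1.00 and RGS20, a regulator of G proteins, by 0.86. TRIM6 fell by 0.83 with siTNFR1 and further with siRELA (-2.67) and siIRF1 (-1.65). ELAPOR1 fell by 0.83, and CHST4, undetected with siTNFR1, was at least 2.36-fold lower.

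The levels were set beside 6 untreated, untransfected MDA-MB-231 arrays of the kinetic experiment, processed together with them, as a description. By the slide numbers those arrays lie on another slide, and they come from another experiment. Neither can be told apart from transfection. Of the 137 genes set apart and higher, 135 were lower in siCtrl than in untransfected cells, against 51.6% of all genes. Their median was 0.03 log2 from untransfected cells with siTNFR1 and -0.75 with siCtrl. The trait was not limited to this class. siCtrl was also lower for 72 of the 89 other called higher genes. The same held for 5 of the 7 higher genes that differed from all 3 siRNA groups, and for 2093 of 3415 uncalled higher genes. The same siCtrl arrays had served to call and sort all these genes. In BV6-treated cells, whose arrays entered those calls only through the normalization and the shared spread, 130 of the 137 were lower in siCtrl than in untransfected cells given BV6 for 9 h (50.8% of all genes), with medians of -0.00 for siTNFR1 and -0.65 for siCtrl. Both comparisons were added after the data had been seen. PTPMT1 averaged 10.96 with siTNFR1, 9.28 with siCtrl and 11.05 untransfected on this scale. The 16 lower genes of the class that differed from all 3 siRNA groups had medians of -0.29 with siTNFR1 and 0.32 with siCtrl. The 25 genes set apart and lower had -0.41 and 0.30. By the median the untransfected cells lay between in both classes. PGM2 averaged 7.54 with siTNFR1, 9.46 with siCtrl and 8.95 untransfected. GPX4 averaged 12.38 with siTNFR1, 12.98 with siCtrl and 12.63 untransfected.

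**Figure D4:**
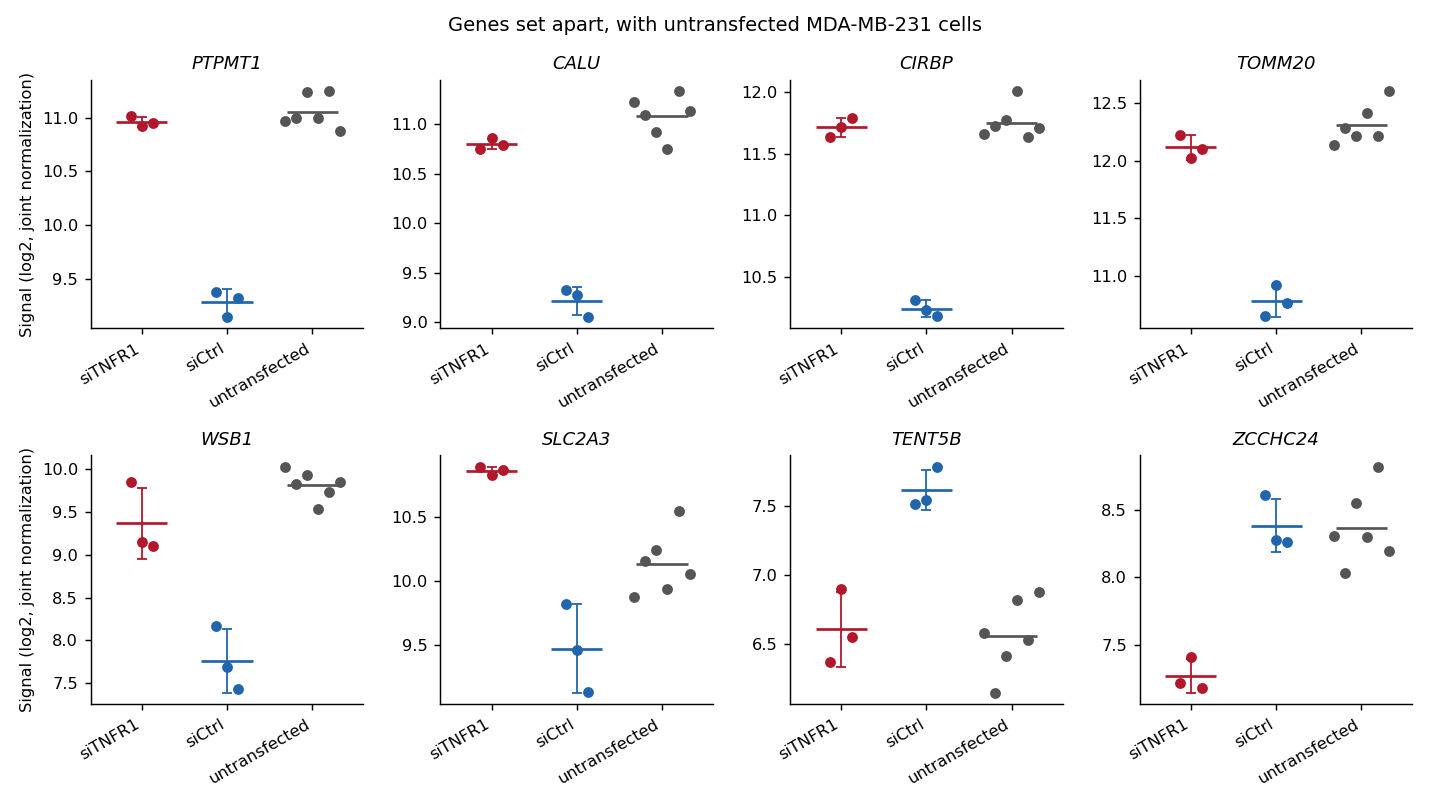
Log2 signal, normalized jointly, of 8 genes set apart, in siTNFR1, siCtrl and untransfected MDA-MB-231 cells without BV6. Points are single arrays (3, 3 and 6), horizontal bars are means, and the SD is drawn for the siRNA groups. PTPMT1, CALU, CIRBP, TOMM20 and WSB1 lie low in siCtrl alone, and TENT5B lies high in siCtrl alone.

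The other 148 called genes, 89 higher and 59 lower, were smaller in effect for the most part. NRBF2, a regulator of autophagy, rose by 1.40 ± 0.25 log2, CEMIP, a hyaluronan-degrading protein gene, by 1.22 ± 0.27, RHOB by 1.14 ± 0.20, VLDLR, a lipoprotein receptor, by 1.10 ± 0.22 and COL8A1, a collagen, by 1.07 ± 0.24 (limma, adjusted p up to 0.00940). COL8A1 had 11.03, 10.37 and 10.79 with siTNFR1, against 10.12, 9.40 and 9.45 with siCtrl, and was higher still with siRELA (11.71, 11.24 and 11.39). Its other probes gave 0.81 ± 0.28 (detected on 6 arrays) and 0.06 ± 0.19 (detected on 5). COL8A1 lost its call in 5 of 18 settings. CDKN1A, the p21 inhibitor, rose by 0.64 ± 0.16, 1 of 12 p53 targets, beside 3.06% of all genes called higher. It lost its call in 7 of 18 settings. With siRELA, CEMIP (1.24), RHOB (0.66) and CDKN1A (0.65) were also called higher, and with siIRF1 NRBF2 (0.95) and VLDLR (0.62) were. RNU4-2, the U4 small nuclear RNA, fell by 1.11, the 1 call among 8 small structural RNAs, beside 1.31% of all genes called lower. POLR3G, a subunit of RNA polymerase III, fell by 0.86, PMS2, of mismatch repair, by 0.73, CWF19L2 by 0.72 and RPL28 by 0.89, with RPL28 and PMS2 from dim probes. PMS2 was also called lower with siRELA (-1.04), and RPL28 (-1.14) and RNU4-2 (-0.74) with siIRF1. PMS2 and CWF19L2 each lost their call in 8 of 17 settings. Of 17 control genes TBP alone was called (0.52 ± 0.11), beside 3.06% of all genes called higher. ACTB (-0.00 ± 0.11) and GAPDH (0.06 ± 0.10) were not called.

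Several lists of genes held no call, where 4.38% of all genes were called. Lists this short can hold 0 calls at that share, so 0 says little about these programs. Of 26 interferon response genes 0 were called, with IFIT1 lowest at -0.49 ± 0.15 (limma, adjusted p = 0.0601) and OAS2 highest at 0.52 ± 0.17 (adjusted p = 0.0852). Class I antigen presentation (17 genes), the sensing of double-stranded RNA together with RNA interference (17 genes) and cholesterol synthesis (14 genes) also had 0 calls. INSIG1, the sterol feedback gene, differed by -0.73 ± 0.22 (adjusted p = 0.0672). Leukocyte (2), fibroblast and endothelial (1) and luminal (9) markers that were measured had 0 calls. In the unfolded protein response, PDIA4 rose by 0.91 ± 0.22 and the other 24 genes were not called, HSPA5 being at -0.01 ± 0.28. PDIA4 was also called higher with siRELA (0.94) and lost its siTNFR1 call in 6 of 17 settings. In the integrated stress response, VLDLR and GARS1 (0.57 ± 0.16), a transfer RNA synthetase, rose among 23 genes, and ATF4 itself differed by 0.06 ± 0.12. GARS1 was also higher with siRELA (0.49) and siIRF1 (0.53), so it was set apart, and lost its call in 10 of 18 settings.

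The same siRNAs with BV6 were compared on 6 other arrays. They enter neither mean of the untreated comparison, but they were normalized with its arrays and share its estimate of the spread, and the 6 untreated arrays fitted alone gave 177 calls. With BV6, 468 genes were called (6.15%), 248 higher (3.26%) and 220 lower (2.89%). Of the 333 genes called without BV6, 316 had the same sign with it, against 64.9% of all genes. The differences correlated across genes at r = 0.897 over the 333 and 0.582 over all, where genes are not independent. The 333 were chosen by their difference without BV6, so the 2 values of r cannot be compared. TNFRSF1A was again undetected with siTNFR1 and at least 17.1-fold lower. Of the 137 set apart and higher, 136 kept the sign and 100 were called. Of the 16 lower genes that differed from every siRNA group, 14 kept the sign and 9 were called, and of the 7 higher ones 5 and 2.

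PGM2 fell by 1.40 with BV6, with 8.17, 7.95 and 7.76 for siTNFR1 against 9.49, 9.41 and 9.17 for siCtrl, and MIDN fell by 1.42. GPX4 fell by 0.53, ARF4 by 0.69 and GPRC5A by 0.79, while COL6A3 rose by 1.56 and TINAGL1 by 0.96. DLD (0.08), OXSM and AFAP1 (0.10) were not called there. SOD2 had 9.36, 9.66 and 9.72 with siTNFR1 against 9.42, 9.77 and 9.37 with siCtrl, which overlap (0.06), and SAA1 differed by 0.77 (limma, adjusted p = 0.0753). CXCL1 was brighter with BV6, averaging 8.34 with siTNFR1 against 9.51 with siCtrl, and was called lower (-1.17 ± 0.19, limma, adjusted p = 0.000189). The difference between the effects with and without BV6 was called for 0 of 7608 genes by limma (509 at an unadjusted p under 0.05), or for 8 in the authors' series matrix. Among the 61 named genes, SOD2 had the lowest adjusted p of that difference, 0.457. Without siCtrl BV6 replicate 3, 219 genes were called with BV6, without siCtrl BV6 replicate 1 there were 298, and without siTNFR1 BV6 replicate 3 there were 301.

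**Figure D5:**
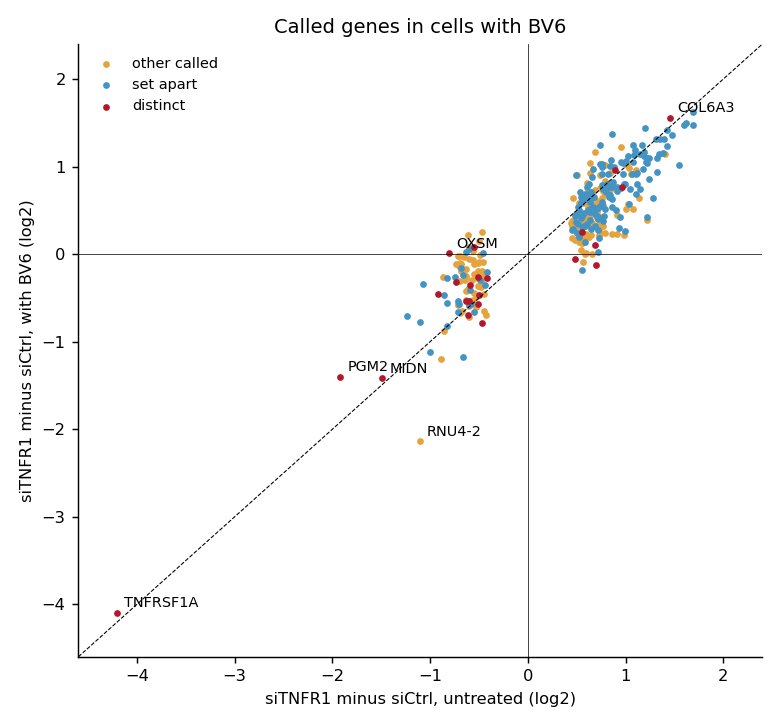
Difference between siTNFR1 and siCtrl with BV6 (log2, vertical axis) against the same difference without BV6 (log2, horizontal axis) for the 333 genes called without it, from 3 arrays per group. The dashed line marks equal values, and colours give the 3 classes of called genes. TNFRSF1A, PGM2, MIDN and COL6A3 lie near the line, RNU4-2 lies below it and OXSM lies near 0 with BV6.

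EVSA-T cells offered 2 arrays per group. TNFRSF1A was undetected on both siTNFR1 arrays (6.56 and 5.65, against 9.01 and 8.66 with siCtrl) and at least 6.62-fold lower (limma, adjusted p = 0.0107). Only 3 of 8422 genes were called (0.0356%), 1 higher (0.0119%) and 2 lower (0.0237%), with 608 at an unadjusted p under 0.05. There were 0 calls without either siCtrl array or without siTNFR1 replicate 2. PGM2 was among them, undetected with siTNFR1 (5.79 and 5.47, against 7.23 and 7.59 with siCtrl) and at least 3.43-fold lower (adjusted p = 0.0107), so TNFRSF1A and PGM2 were the genes called the same way in all 3 settings. MIDN had 8.34 and 7.74 with siTNFR1, against 8.84 and 8.80 with siCtrl, and did not pass (-0.78, adjusted p = 0.421).

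Of the 137 genes set apart and higher, 127 were measured in EVSA-T, 116 shared the direction and 0 passed the test; their median was 0.48 log2. Among uncalled genes that were higher in MDA-MB-231, 1529 of 2965 had the same sign. Of the 16 lower genes that differed from every siRNA group, 15 were measured and 13 shared the direction, with a median of -0.28 log2. TNFRSF1A and PGM2 were the 2 called. Of the 7 higher ones only 1 was measured. Of the 25 set apart and lower, 16 were measured and 9 shared the direction. Among uncalled lower genes 2126 of 3431 did. PTPMT1 had 10.11 and 10.62 with siTNFR1, against 8.91 and 7.77 with siCtrl, without overlap. CALU had 9.82 and 10.15 with siTNFR1, against 8.90 and 8.31 with siCtrl. The difference of effects between the cell lines was called for 0 genes by limma (536 at an unadjusted p under 0.05), or for 1 in the authors' series matrix.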

How the data were processed

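RNA was hybridised to Illumina HumanHT-12 arrays, 1 array per sample. The authors deposited 1 signal per probe and array, read here as log2 from its range (5.47 to 14.9), with a detection p-value per the file headers, and a log2 series matrix. The sources used here name no scanner software. In R 4.3.3 with limma 3.58.1, neqc (negative controls inferred from detection p, offset 16, quantile) processed the 24 siRNA arrays. Of 48107 probes, 3 lacked a value, 30112 had 1 symbol, 8 several and 17984 none. The fit had 1 coefficient per group (16 residual degrees of freedom), two-sided tests and Benjamini-Hochberg adjustment over 7608 genes. EVSA-T arrays (4 residual degrees of freedom) and joint sets were processed by themselves. Errors after ± are standard errors. The main fit paired no arrays, and the replicate block was run as an alternative. Residuals of same-numbered siTNFR1 and siCtrl arrays correlated at 0.363, 0.106 and 0.197. Of the differently numbered pairs, siTNFR1 replicate 2 and siCtrl replicate 3 correlated at 0.135, and all the others were negative (-0.289 to -0.0431). In BV6-treated cells the same-numbered values were 0.129, 0.0639 and -0.0754, and the differently numbered ones ran from -0.175 to 0.0831. On simulated data for the untreated comparison (7608 genes), 33 of 100 changes of 0.5 log2 and 89 of 100 of 1 log2 were recovered, with 5 false calls. The simulated noise was independent, with no slide, replicate or scaling differences, so these 5 do not measure false calls in the real comparison. Members, lists and the rule for named genes were chosen with earlier results of these data known. That rule took called members of each list, the largest changes of each class and genes called in all 3 settings.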

Additional observations from a re-analysis of the deposited data

How the results depend on the processing

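TNFRSF1A kept its call in every alternative that tested it, which excludes detection on all 6 arrays (-4.33 to -4.11 log2 with 1 array left out). The count of 333 was 177 from the 6 arrays alone, 510 with the slide as a block, 58 within slide 1, 109 within slide 2, 510 with the replicate block, and 202 to 318 with 1 array left out. All 333 were called in both block fits. The 162 set apart became 92 with median scaling, 40 and 65 within the slides, and 108 to 159 with 1 array left out. The 23 that differed from every siRNA group became 14 when detection on all 6 arrays was required, 37 with the slide block, 5 and 5 within the slides, 42 with the replicate block, and 11 to 23 with 1 array left out (11 without siTNFR1 replicate 1, 12 without siCtrl replicate 2, 14 without siTNFR1 replicate 3). With BV6, the 468 became 716 with the replicate block and 219 to 432 with 1 array left out. The difference between treatments had 8 calls in the series matrix, and 0 with any array left out. In EVSA-T the 3 calls became 7 with the replicate block, 7 in the series matrix, 0 with no filter, and 0 to 2 with 1 array left out. The difference between cell lines had 1 call in the series matrix. Over 60 named genes besides TNFRSF1A, 812 of 1059 values kept direction and call, 247 kept direction only and 0 reversed. Of these genes 11 kept the call in each setting that tested them. The cause of these changes was not tested, except that left-out and within-slide fits hold fewer arrays. Small changes of dim genes are compressed by the background, and the number of arrays limits the precision.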
